A study of Mus musculus with 12 samples.

Results

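The genotype by lesion interaction asks whether the response of the spinal cord to a demyelinating injury differed between mice with and without Tet1 in the oligodendroglial lineage. For each gene it is the lesion response in the mutant (4 days post lesion, 4dpl, minus unlesioned) minus the lesion response in the control, on the log2 scale, so a value above 0 means a higher response in the mutant. All 12 of the 12 RNA-seq libraries entered it, 3 in each of 4 groups. Controls were Olig1+/+;Tet1fl/fl and mutants Olig1cre/+;Tet1fl/fl, so both genotypes carried the floxed Tet1 alleles and differed in the Cre knocked into 1 Olig1 allele, which acts in the whole oligodendroglial lineage from development on. Mice of either sex were at postnatal day 60. Lysolecithin, a detergent that strips myelin, had been injected into ventrolateral white matter, and the unlesioned tissue came from the side of the cord opposite the lesion. Cells were enriched for oligodendroglia on a Percoll gradient and were not sorted. The labels number the libraries of a group but do not say which of them share a mouse, nor that each came from its own animal, so the p-values measure the spread between these libraries.

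After myelin is stripped from axons, microglia and macrophages clear the debris through phagocytosis and lysosomal breakdown, export the cholesterol they recover, and oligodendrocyte progenitors divide, migrate in and differentiate into new myelin-forming oligodendrocytes. Making new membrane draws on cholesterol, fatty acid and sphingolipid synthesis. TET1 is 1 of 3 dioxygenases that oxidise 5-methylcytosine in DNA to 5-hydroxymethylcytosine, a step in active demethylation. In bulk RNA from an enriched preparation, fewer cells of a type and less RNA per cell cannot be told apart, and this holds for each gene list described here.

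Depth was 34805086 to 67251544 counts per library. More genes had at least 1 count in the unlesioned libraries (40023 to 44516) than at 4dpl (33964 to 37516), in both genotypes. The preparations held much RNA of blood cells. On the CPM scale (counts scaled by library size and TMM factor), the 15 neutrophil markers took 2.49% to 13.2% in each library. The 9 erythroid markers tested of 10 took 1.22% to 10.02%, against 1.59% to 7.62% for 18 structural myelin proteins. With the TMM factor these are not exact shares of counts. Markers of neurons took at most 0.10%, of fibroblasts at most 0.023% and of endothelial cells at most 0.010%. Thus the myelin genes that define the labelled oligodendroglial preparation were abundant, and so were genes of cells that the enrichment does not name. Libraries of a group were not always the most alike. Control unlesioned 1 and all 6 mutant libraries, 7 of the 12, had a higher Spearman correlation over genes with a library of another group than with any of their own. Control 4dpl 3 was level to the digits kept, at 0.9825 with mutant 4dpl 1 and at most 0.9825 in its group. The gap was 0.0363 for control unlesioned 1, at 0.973 with mutant 4dpl 2 and at most 0.937 in its group, and 0.0008 to 0.0132 for the mutant libraries. Control unlesioned 1 was also high in interferon-stimulated genes. Mutant 4dpl 3 was high in oligodendrocyte genes and mutant unlesioned 2 low in them. Mutant unlesioned 1 was high in microglial genes among its group.

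Tet1, the targeted gene (ENSMUSG00000047146, chr10:62804570-62908996, minus strand, GRCm38), did not separate the libraries by genotype. Tet1 was at 15.03, 14.9 and 18.3 CPM in control unlesioned libraries, 12.5, 11.7 and 12.04 CPM in control 4dpl, 16.4, 9.94 and 12.1 CPM in mutant unlesioned and 13.4, 10.9 and 21.5 CPM in mutant 4dpl libraries. Its interaction was 0.67 ± 0.39 (standard error, SE), and mutant 4dpl 3 had the highest level of all 12 libraries. The Tet1 interaction was 0.34 without that library. A count over the whole gene does not resolve the floxed exon, and cells outside the lineage keep the gene, so it does not check the deletion. Tet2 and Tet3, the other TET dioxygenases, had interactions of -0.036 ± 0.36 (0.25 without mutant unlesioned 1) and 0.36 ± 0.28. Olig1, the gene that carries the Cre, reached 188, 201 and 199 CPM in control 4dpl and 192, 233 and 623 CPM in mutant 4dpl libraries, with an interaction of 1.27 ± 0.63. The Olig1 value was 0.55 without mutant 4dpl 3.

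No gene passed for the interaction. edgeR's quasi-likelihood test called 0 of 31109 genes at p under 0.01 and Benjamini-Hochberg adjusted p under 0.05 (0% called), and adjusted p was 1 for every gene named here. DESeq2 called 0 genes, with a smallest adjusted p of 0.0927 for Jund, and limma-voom with sample weights called 0, with a smallest of 0.744. At an unadjusted p under 0.05, 828 genes (2.66%) lay above 0 and 356 (1.14%) below, together 1184 (3.81%). The split depended on the scaling. In the same test it was 676 against 432 with RLE factors and 624 against 510 with upper quartile factors, while the median interaction of all genes moved from 0.074 to -0.0059 and -0.043. DESeq2, which changes the test as well, gave 786 against 551. Among the 13616 genes with a mean log2 CPM of at least 1, 59.0% lay above 0 and 41.0% below, 492 (3.61%) had p under 0.05 above 0 and 69 (0.507%) below. The median SE of these genes was 0.43. Single genes are given from here on with the interaction ± SE, and with the value without the library that took it furthest towards or past 0 where this cut the size by more than 1.5 times or turned the sign. That was so for 42 of 74 named genes, counting Nsmce4a and Zfp771, whose interactions are not printed. The library was mutant 4dpl 3 for 18 of the 42, control unlesioned 1 for 8 and mutant unlesioned 1 for 8. Throughout, the smallest p means the smallest unadjusted edgeR p.

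The lesion response that both genotypes shared was large. Over both genotypes 4423 genes (14.2%) were called up and 5771 (18.6%) down, by a contrast that uses the mean of both responses and not their difference. The genes called up had a median response of 0.80 in control and 0.71 in mutant, with a median interaction of -0.091, and 62.1% of them lay below 0. That sign turned with 1 library. The median over the same genes was between -0.27 and 0.077 as each library was left out. The genes called down had medians of -2.42 and -2.42, with a median interaction of 0.058 (-0.33 to 0.30). All 4423 genes called up had a response above 0 in each genotype, and 5766 of the 5771 called down a response below 0 in each. Of all 31109 genes, 25892 had both responses in the direction of their mean. Choosing genes by that mean favours a shared sign, so these counts do not test it.

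Choosing the genes in 1 genotype gave another picture, in opposite directions for each. In control alone 1592 genes (5.12%) were called up and 1558 (5.01%) down, and in mutant alone 7 (0.0225%) and 35 (0.113%). Since so few passed in the mutant, the same question was asked of genes at an unadjusted p under 0.01 in each genotype. The 2246 genes up in control had medians of 1.02 in control and 0.75 in mutant, and 87.7% had an interaction below 0. The 1799 genes up in mutant had medians of 0.72 in control and 0.83 in mutant, and 35.4% lay below 0. The genes down showed the same reversal more strongly. The 2487 genes down in control had medians of -3.13 in control and -2.001 in mutant. The 2191 genes down in mutant had -2.07 in control and -3.13 in mutant. In each case the genotype used for choosing had the larger median response, so these shares are descriptions of the choice, and only the genes chosen over both genotypes do not use the difference.

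**Figure D1:**
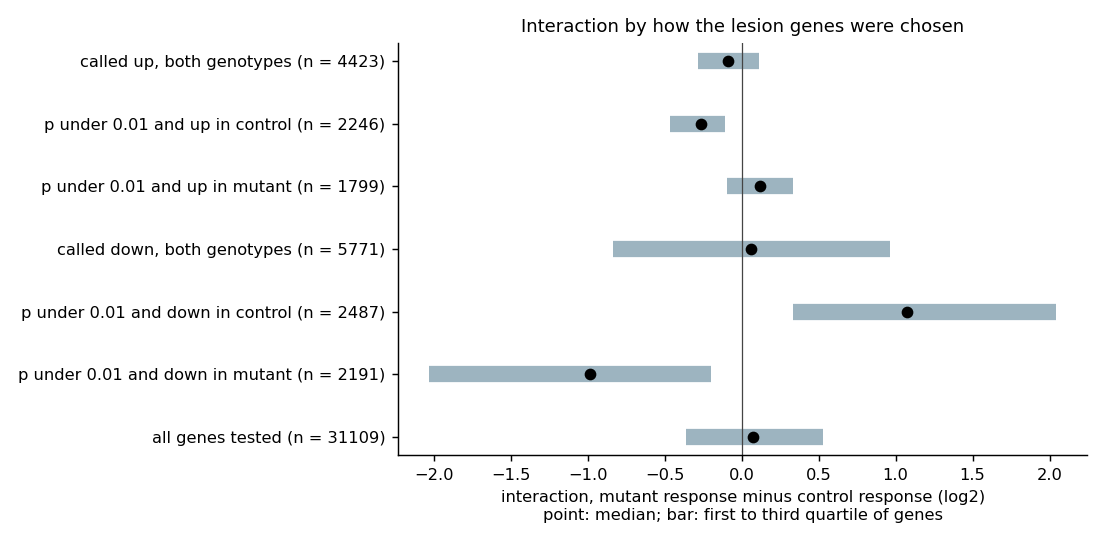
Interaction (mutant response minus control response, log2) for genes chosen by their lesion response in 3 ways, with points at the median and bars from the first to the third quartile of genes. The median was -0.091 for the 4423 genes called up over both genotypes, -0.26 for those chosen in control and 0.12 for those chosen in mutant. For genes down it was 0.058, 1.07 and -0.98.

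Gene lists were therefore described by the median interaction of their members, beside 0.074 for all genes tested and 0.090 for the 13616 expressed ones. There were 54 lists, 19 of cell type markers, 33 of pathways and 2 of other gene classes. Of the 54 medians 30 lay above 0 and 24 below. In all, 6 lists lay above 0.5 and 3 below -0.5. The high lists were erythroid, mature oligodendrocyte, structural myelin, B and plasma cell, neutrophil and mural markers. The low lists were fibroblast, homeostatic microglia and oligodendrocyte progenitor markers. Leaving out any 1 library kept the sign of 21 medians, and 17 kept it under every alternative tried. With the labels' replicate numbers as a block 6 of the 54 medians changed sign, and with the study's own numbers 19. The latter block draws only on libraries whose number is shared by both states of a genotype. The lists overlap, with 50 of the 877 genes of the hand-written lists in more than 1 of them.

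**Figure D2:**
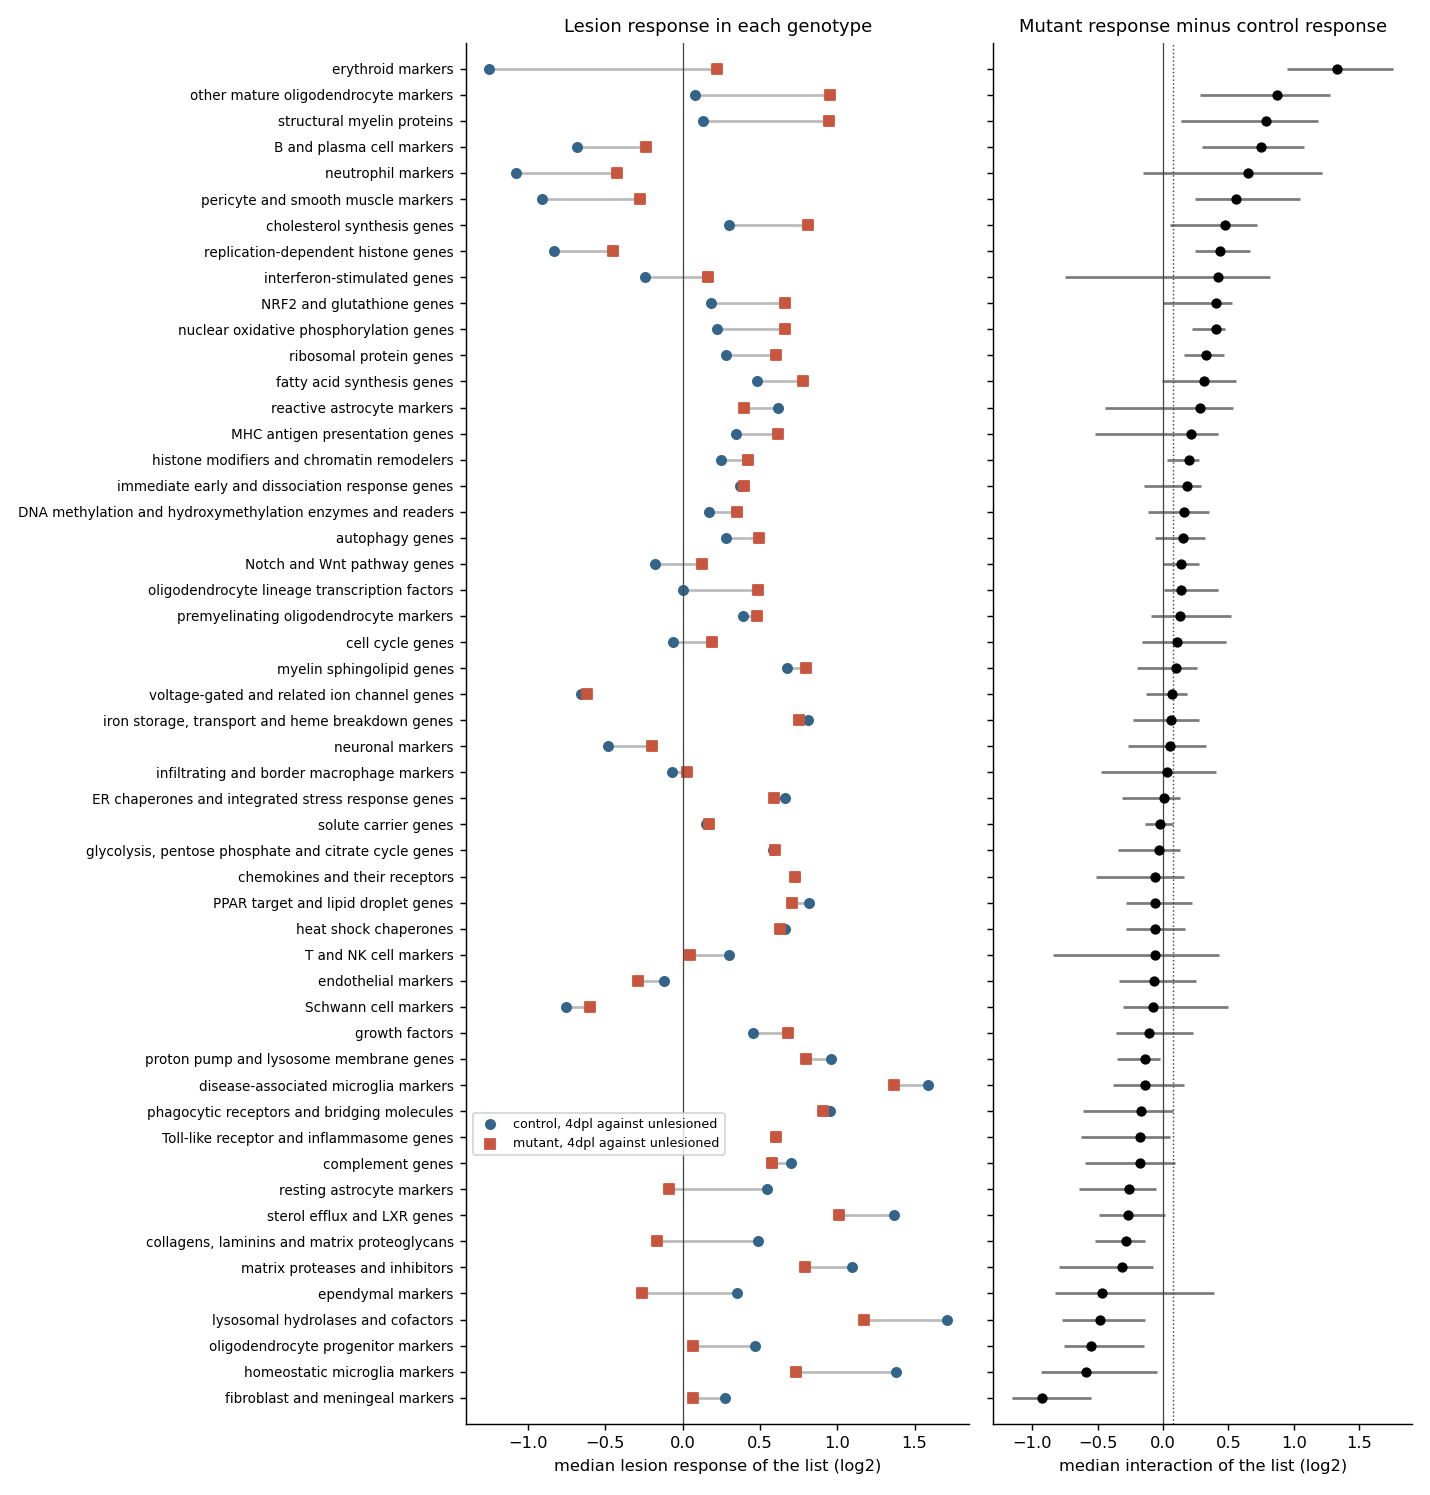
Median lesion response in control (circles) and mutant (squares) on the left and median interaction on the right, all log2, of the members of 52 gene lists, where lines on the right span the range of the median as each of the 12 libraries is left out and the dotted line is the median of all genes tested. Erythroid (1.33), mature oligodendrocyte (0.88) and structural myelin (0.79) markers lie at the high end, and fibroblast (-0.92), homeostatic microglia (-0.59) and progenitor (-0.55) markers at the low end, many with wide lines.

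Genes of myelinating oligodendrocytes lay above 0 on the interaction, with sizes that rested largely on 1 library, and no member passed the test. Of the 18 structural myelin proteins 2 had p under 0.05 above 0 (2.66% of all genes). The 18 proteins had a median interaction of 0.79, with 15 of 18 above 0 (54.8% of all genes). Their median response was 0.13 in control and 0.95 in mutant. The list level, the mean log2 CPM of its members, was 8.68, 8.64 and 8.58 in control unlesioned, 8.91, 8.73 and 8.84 in control 4dpl, 9.07, 7.73 and 8.61 in mutant unlesioned and 8.81, 9.03 and 10.29 in mutant 4dpl libraries. Mutant 4dpl 3 was the highest and mutant unlesioned 2 the lowest of the 12, while the other 10 lay between 8.58 and 9.07. Without mutant 4dpl 3 the median was 0.14, and without mutant unlesioned 1 it was 1.19. The 18 other mature oligodendrocyte markers all lay above 0, with a median of 0.88 and 0.28 without mutant 4dpl 3.

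Cldn11 encodes the tight junction protein of the myelin sheath. Cldn11 was at 119, 223 and 226 CPM in control unlesioned libraries, 138, 149.5 and 146 CPM in control 4dpl, 156, 59.05 and 154 CPM in mutant unlesioned and 151, 182 and 356 CPM in mutant 4dpl libraries. At 4dpl every mutant value was higher than every control value. Its interaction was 1.29 ± 0.56 (0.83 without mutant 4dpl 3). Ppp1r14a, an inhibitor of protein phosphatase 1 enriched in oligodendrocytes, had 1.51 ± 0.59 (0.88 without mutant 4dpl 3), and Opalin, a transmembrane protein of mature oligodendrocytes, 1.37 ± 0.66 (0.51 without mutant 4dpl 3).

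Transcription factors of the lineage were mixed, with a median of 0.14 and 13 of 21 above 0 (59.0% of expressed genes). The median was 0.004 without mutant 4dpl 3 and 0.42 without mutant unlesioned 1. Of the members 3 had p under 0.05, all above 0. Among expressed genes 3.61% had p under 0.05 above 0 and 0.507% below. Sox4 was at 14.97, 15.3 and 15.4 CPM in control unlesioned libraries, 4.46, 4.87 and 6.20 CPM in control 4dpl, 13.1, 20.4 and 15.1 CPM in mutant unlesioned and 15.6, 14.3 and 34.1 CPM in mutant 4dpl libraries. Sox4, a SoxC factor of immature cells, was lower in the 3 control 4dpl libraries than in any other, and its interaction was 1.95 ± 0.45. Olig2 was at 20.7, 17.04 and 16.2 CPM in control unlesioned libraries, 5.77, 9.41 and 9.58 CPM in control 4dpl, 17.9, 20.9 and 17.6 CPM in mutant unlesioned and 12.5, 15.8 and 73.1 CPM in mutant 4dpl libraries. Olig2, which specifies the lineage, was lowest in the 3 control 4dpl libraries, lay between these and the unlesioned libraries in mutant 4dpl 1 and 2, and was far above the rest in mutant 4dpl 3. Its interaction was 1.97 ± 0.70, and 0.72 without that library. Nkx6-2, a homeodomain factor of myelinating cells, had 1.71 ± 0.58, and 1.05 without it.

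Markers of oligodendrocyte progenitors lay on the other side of 0. Of the 18 members 2 had p under 0.05, both below 0 (1.14% of all genes). The 18 members had a median of -0.55, with 12 of 18 below 0 (45.2% of all genes). Their median response was 0.47 in control and 0.069 in mutant, and their median genotype difference was 0.42 unlesioned and 0.052 at 4dpl, so the gap lay in the unlesioned tissue. The list level was 3.23, 3.39 and 3.43 in control unlesioned, 3.29, 3.49 and 4.29 in control 4dpl, 4.09, 3.72 and 3.82 in mutant unlesioned and 3.79, 3.61 and 4.30 in mutant 4dpl libraries. Every mutant unlesioned library lay above every control unlesioned one. The median was -0.15 without control 4dpl 3, the highest control 4dpl library, and 0.057 with the study's own replicate numbers as a block.

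Pdgfra, the receptor for platelet-derived growth factor that drives progenitor division (ENSMUSG00000029231, chr5:75152292-75198215, plus strand), showed this pattern. Pdgfra was at 11.3, 9.67 and 8.38 CPM in control unlesioned libraries, 21.7, 25.99 and 47.9 CPM in control 4dpl, 31.1, 14.5 and 15.9 CPM in mutant unlesioned and 21.5, 20.6 and 25.1 CPM in mutant 4dpl libraries. Control libraries did not overlap between unlesioned and 4dpl, whereas mutant libraries did. The lesion response was 1.70 ± 0.34 in control and 0.13 ± 0.33 in mutant, and the interaction -1.57 ± 0.47, -1.79 to -1.13 as libraries were left out. Vcan, the chondroitin sulfate proteoglycan versican of progenitors and matrix, had -0.99 ± 0.32, and Lhfpl3, a tetraspan protein of progenitors, -1.29 ± 0.61 (-0.50 without control 4dpl 3). Gpr17, a receptor held by cells between progenitor and myelinating stages, was at 17.4, 9.01 and 9.97 CPM in control unlesioned and 126, 29.03 and 32.05 CPM in mutant unlesioned libraries, with the groups not overlapping. Its interaction was -2.08 ± 0.74, and -1.04 without mutant unlesioned 1, the library at 126 CPM. The 16 premyelinating markers as a list lay at 0.13, with 10 of 16 above 0 and Tmem163, a zinc transporter, at 1.53 ± 0.61 (0.85 without mutant 4dpl 3).

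**Figure D3:**
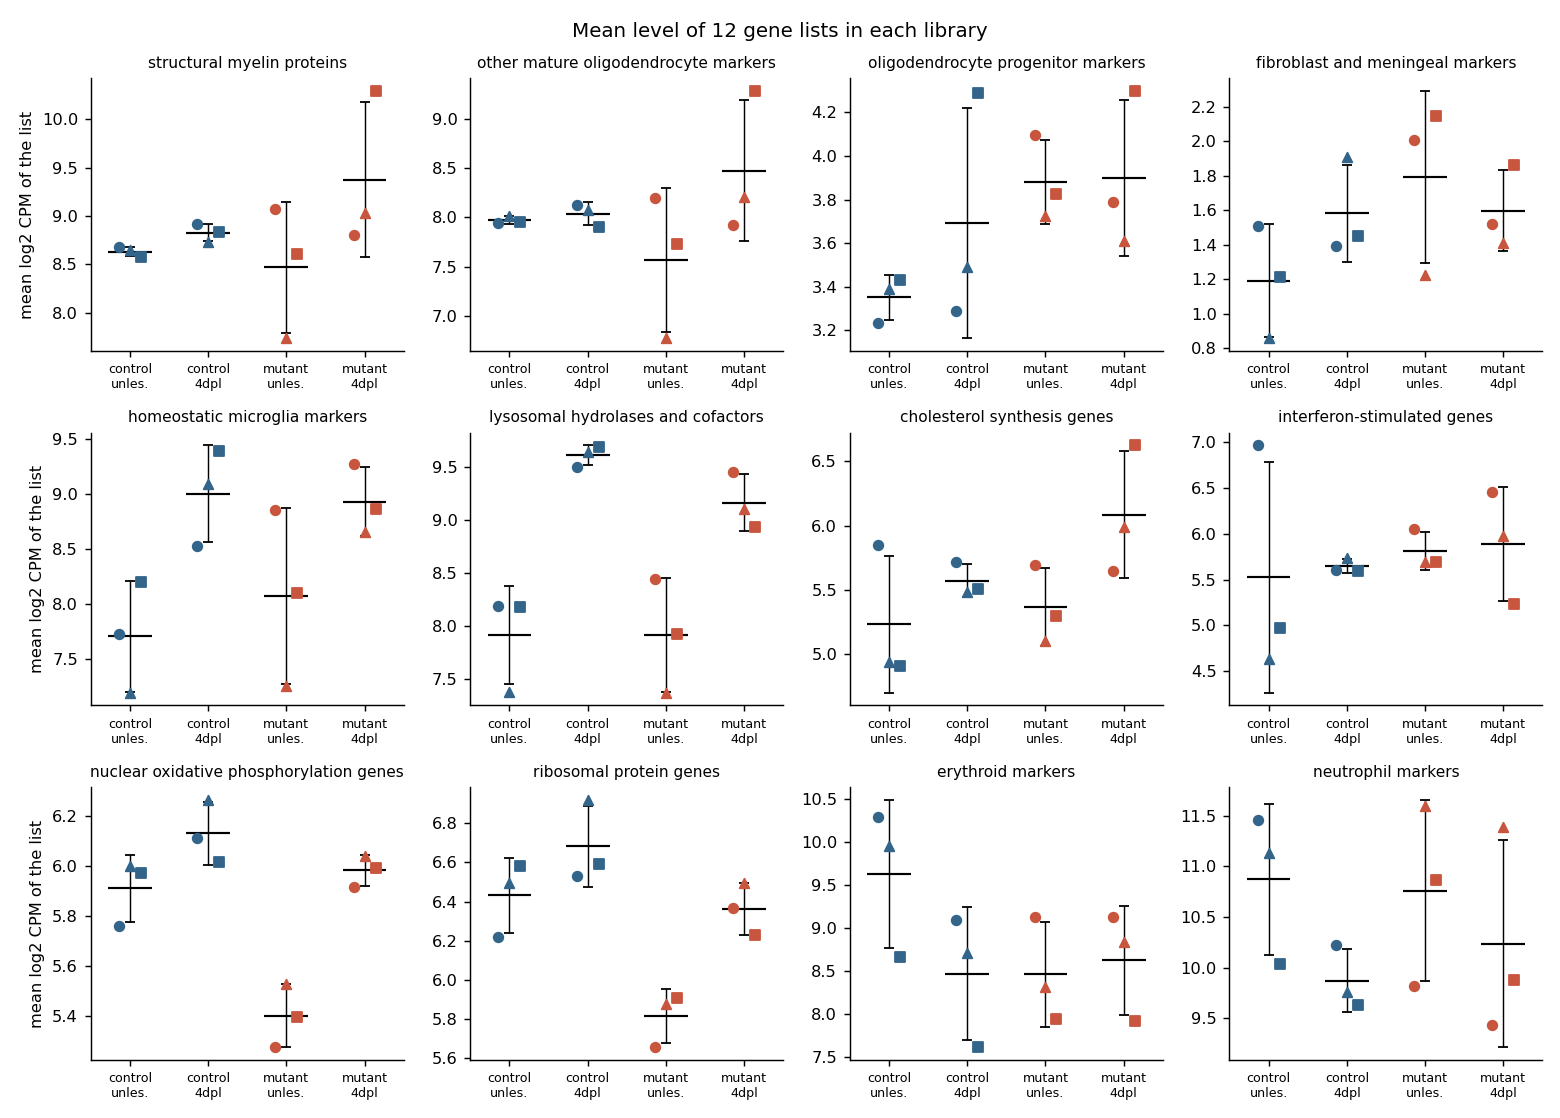
Level (mean log2 CPM of the members) of 12 gene lists in each of the 12 libraries, by group, with symbols for replicate number and bars for the mean and SD of 3 libraries. Mutant 4dpl 3 stands above the other libraries in both oligodendrocyte lists, control unlesioned 1 above the others for interferon-stimulated genes, and lysosomal hydrolases are higher at 4dpl in both genotypes without overlap.

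Most microglial and lysosomal genes of the lists rose after lesion over both genotypes. Of 30 lysosomal hydrolases 29 were called up over both genotypes, against 14.2% of all genes and 4340 of the 13616 expressed ones. So were 24 of 28 lysosomal membrane and proton pump genes and 17 of 22 disease-associated microglia markers. The count was 14 of 16 for genes of cholesterol efflux under the liver X receptors and 13 of 18 for homeostatic microglia markers. The hydrolases had a median response of 1.71 in control and 1.17 in mutant. Their median interaction was -0.49, with 28 of 30 below 0 and none at p under 0.05 by edgeR. The list level was 8.19, 7.38 and 8.18 in control unlesioned, 9.50, 9.64 and 9.68 in control 4dpl, 8.45, 7.37 and 7.93 in mutant unlesioned and 9.45, 9.11 and 8.93 in mutant 4dpl libraries. All 6 libraries at 4dpl lay above all 6 unlesioned ones, and the 3 mutant values at 4dpl lay below the 3 control values at 4dpl. The median ranged from -0.77 to -0.14 as libraries were left out, and was nearest 0 without mutant unlesioned 1.

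Gaa, acid alpha-glucosidase, which breaks down glycogen in lysosomes (ENSMUSG00000025579, chr11:119267887-119285454, plus strand), is the hydrolase with the smallest p. Gaa was at 79.02, 54.6 and 89.6 CPM in control unlesioned libraries, 272, 274 and 269 CPM in control 4dpl, 123, 52.4 and 69.3 CPM in mutant unlesioned and 227, 160.2 and 169.7 CPM in mutant 4dpl libraries. Every control 4dpl library lay above every mutant 4dpl library. The response was 1.87 ± 0.31 in control and 1.19 ± 0.31 in mutant, and Gaa rose over both genotypes (adjusted p = 0.00213, edgeR with Benjamini-Hochberg). Its interaction was -0.68 ± 0.43 (-0.25 without mutant unlesioned 1). Asah1, acid ceramidase, had -0.75 ± 0.48 (-0.44 without control unlesioned 2) and Glb1, beta-galactosidase, -0.63 ± 0.43 (-0.24 without mutant unlesioned 1). Ctsd, cathepsin D, with the highest CPM of the list on a scale not adjusted for transcript length, was at 14947, 15569 and 17092 CPM in control 4dpl and 12847, 9247 and 6706 CPM in mutant 4dpl libraries, without overlap. Its interaction was -0.53 ± 0.69, and 0.083 without mutant unlesioned 1. Lamp1, the main glycoprotein of the lysosomal membrane, differed from this list. Lamp1 was at 866, 386 and 439 CPM in control unlesioned libraries, 388, 450.4 and 535 CPM in control 4dpl, 782, 598 and 699 CPM in mutant unlesioned and 1072, 1161 and 2162 CPM in mutant 4dpl libraries. Its interaction was 1.38 ± 0.51, while its relative Lamp2 had -0.55 ± 0.46 (-0.26 without control unlesioned 2).

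The promoters of Gaa and Ctsd are shown because the transcription factor TFEB drives many hydrolase genes together through E-boxes. Each is the 250 bases before the gene's start in RefSeq (GRCm38.p6), 5′ to 3′ along the gene's strand, with the E-box CACGTG in capitals. Gaa lies at chr11:119267713-119267962, plus strand, and Ctsd at chr7:142387828-142388077, minus strand.
Gaa: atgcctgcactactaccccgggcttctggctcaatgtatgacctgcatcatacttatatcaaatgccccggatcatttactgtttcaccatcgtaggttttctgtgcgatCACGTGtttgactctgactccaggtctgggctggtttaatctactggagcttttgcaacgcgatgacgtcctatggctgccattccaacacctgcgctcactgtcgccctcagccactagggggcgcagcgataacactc
Ctsd: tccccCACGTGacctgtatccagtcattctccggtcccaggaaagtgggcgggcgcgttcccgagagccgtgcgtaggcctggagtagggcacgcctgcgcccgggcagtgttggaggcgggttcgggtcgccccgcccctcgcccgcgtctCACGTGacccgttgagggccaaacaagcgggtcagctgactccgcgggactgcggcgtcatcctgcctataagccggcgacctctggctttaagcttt
CACGTG, searched on both strands (it is its own reverse complement), occurred in 8 of the 23 hydrolase promoters that matched, and in 8.06% of 17141 promoters of the same length. Those 8 included Ctsl, Gla, Lgmn, Naglu, Ctsa and Glb1. The longer CLEAR element, which contains it, was in 0 of 23 and in 0.391% of all. A match of letters is a description and not a bound site.

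Homeostatic microglia markers had a median interaction of -0.59, with 16 of 18 below 0 and none at p under 0.05. Their median response was 1.38 in control and 0.73 in mutant, and their genotype difference 0.43 unlesioned and -0.084 at 4dpl. Without mutant unlesioned 1, the highest unlesioned library of this list, the median was -0.044. Tgfbr1, a receptor for the TGF-beta that maintains microglial identity, had -0.94 ± 0.54 (-0.33 without mutant unlesioned 1). Disease-associated markers were closer to 0, with a median of -0.14 and 17 of 22 below 0, and 0.16 without mutant unlesioned 1.

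Spp1, osteopontin, was the disease-associated gene with the largest response. Spp1 was at 2396, 262 and 2325 CPM in control unlesioned libraries, 16408, 11406 and 10879 CPM in control 4dpl, 587, 93.2 and 493 CPM in mutant unlesioned and 10295, 6151 and 4080.4 CPM in mutant 4dpl libraries. It rose over both genotypes by 3.54 ± 0.56 (adjusted p = 0.00257, edgeR with Benjamini-Hochberg), and its interaction was 1.17 ± 1.02 (0.71 without mutant unlesioned 2). Apoe, the lipid carrier of glia, rose by 2.30 ± 0.39 with an interaction of -0.31 ± 0.75 (0.11 without mutant unlesioned 1). Pltp, a phospholipid transfer protein under the liver X receptors, had -1.23 ± 0.59 (-0.56 without mutant unlesioned 2), with mutant unlesioned 2 at 104 CPM and the other unlesioned libraries at 43.8 CPM or less. Mertk, a receptor for apoptotic cells and myelin debris, had -0.99 ± 0.57 (-0.43 without mutant unlesioned 1). The efflux list had a median of -0.27, the phagocytosis list -0.17 and the lysosomal membrane list -0.13, where 11 of 16, 16 of 24 and 20 of 28 members lay below 0. As libraries were left out, these medians ranged from -0.49 to 0.016, from -0.61 to 0.0785 and from -0.35 to -0.022. The efflux and phagocytosis medians lay above 0 without mutant unlesioned 1.

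Cholesterol synthesis was the one pathway of over 20 genes with all of its members on the same side. All 23 lay above 0, against 54.8% of all genes, with a median interaction of 0.47 and none at p under 0.05. The median response was 0.30 in control and 0.81 in mutant. The list level was 5.85, 4.94 and 4.91 in control unlesioned, 5.72, 5.49 and 5.51 in control 4dpl, 5.70, 5.11 and 5.29 in mutant unlesioned and 5.65, 5.99 and 6.63 in mutant 4dpl libraries. Mutant 4dpl 2 and 3 lay above every other library, whereas mutant 4dpl 1 lay among the control 4dpl values. The size rested on 2 libraries. It was 0.051 without control unlesioned 1 and 0.17 without mutant 4dpl 3, the library that was also high in myelin genes, and 0.025 with the study's replicate numbers as a block. The part that its oligodendrocyte RNA has in this value was not tested.

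Mvk, mevalonate kinase, had the smallest p of the list. Mvk was at 24.1, 19.7 and 20.5 CPM in control unlesioned libraries, 21.96, 21.6 and 21.5 CPM in control 4dpl, 23.3, 14.9 and 20.5 CPM in mutant unlesioned and 22.7, 29.3 and 55.4 CPM in mutant 4dpl libraries. The control groups overlapped and were level, and only mutant 4dpl 2 and 3 stood above the rest. Its interaction was 0.85 ± 0.41 (0.39 without mutant 4dpl 3). Fdps, farnesyl diphosphate synthase, had 0.85 ± 0.42 (0.54 without mutant 4dpl 3), and Pmvk, phosphomevalonate kinase, 0.70 ± 0.35 (0.37 without mutant 4dpl 3). Hmgcs1, which makes the HMG-CoA from which the pathway starts, had 0.46 ± 0.63, -0.11 without control unlesioned 1 and -0.041 without mutant 4dpl 3. Fatty acid synthesis genes followed with a median of 0.31 and 12 of 15 above 0, and -0.0079 without mutant 4dpl 3. Elovl6, a fatty acid elongase, had 1.09 ± 0.59 (0.51 without mutant 4dpl 3). Among myelin sphingolipid genes (median 0.10, 9 of 16 above 0), Gal3st1, which makes sulfatide, had 1.88 ± 0.63, and 1.01 without mutant 4dpl 3.

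The Mvk promoter is shown because it held the most copies, 5, of a motif found in every cholesterol promoter that matched, the others holding 1 to 3. SREBP, which drives this pathway, works with NF-Y, a factor that binds the CCAAT box. The 250 bases before the start lie at chr5:114444019-114444268, plus strand (RefSeq, GRCm38.p6), with CCAAT or its reverse complement ATTGG in capitals.
Mvk: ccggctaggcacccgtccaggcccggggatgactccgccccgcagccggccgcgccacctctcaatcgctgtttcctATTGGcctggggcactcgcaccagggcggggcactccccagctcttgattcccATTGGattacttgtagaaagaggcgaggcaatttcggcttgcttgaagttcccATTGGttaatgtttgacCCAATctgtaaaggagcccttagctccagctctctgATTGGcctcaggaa
CCAAT was present in all 16 of the 16 cholesterol promoters that matched among 23 genes, and in 38.7% of 17141 promoters (6640). The core TCACNCCAC of the sterol response element, where N is any base, was found in 1 of the 16, Hmgcs1, and in 1.22% of all.

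Interferon-stimulated genes had 23 of 25 members above 0 with none at p under 0.05, but the direction rested on 1 control library. The median interaction was 0.42, the median response -0.24 in control and 0.16 in mutant. The list level was 6.96, 4.63 and 4.97 in control unlesioned, 5.61, 5.74 and 5.60 in control 4dpl, 6.05, 5.69 and 5.69 in mutant unlesioned and 6.46, 5.97 and 5.23 in mutant 4dpl libraries. Control unlesioned 1 lay above all others, the other libraries of its group being at 4.63 and 4.97. Without it the median was -0.75, the opposite sign, and limma-voom with sample weights gave -0.53. The mean level itself had an interaction of -0.047 ± 0.82 (SE), of the other sign than the median.

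Isg15, a ubiquitin-like modifier, had the smallest p of the list. Isg15 was at 197, 66.5 and 33.1 CPM in control unlesioned libraries, 41.9, 41.8 and 33.5 CPM in control 4dpl, 56.5, 40.6 and 40.1 CPM in mutant unlesioned and 63.5, 48.6 and 21.9 CPM in mutant 4dpl libraries. Its interaction was 1.31 ± 0.71, and 0.31 without control unlesioned 1. Rsad2, the antiviral enzyme viperin, was at 739, 211 and 82.7 CPM in control unlesioned libraries, with an interaction of 1.16 ± 0.88 and -0.072 without the first. The Isg15 promoter is printed because its core motif repeats. The 250 bases before the start lie at chr4:156200819-156201068, minus strand (RefSeq, GRCm38.p6), with matches to the core of the interferon-stimulated response element, a GAAA and another GAAA with any 2 bases between, in capitals.
Isg15: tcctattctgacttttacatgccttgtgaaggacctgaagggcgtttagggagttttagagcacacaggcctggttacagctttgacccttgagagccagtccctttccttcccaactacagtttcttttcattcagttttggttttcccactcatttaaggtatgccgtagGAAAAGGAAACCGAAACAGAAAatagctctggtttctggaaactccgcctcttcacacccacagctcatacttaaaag
The 3 matches overlap. The motif, on either strand, was in 9 of 18 matched interferon promoters, Rsad2 and Cxcl10 among them, and in 3.41% of all. MHC antigen presentation genes, which interferon also drives, had a median of 0.21 and -0.52 without control unlesioned 1.

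Nuclear genes of oxidative phosphorylation and ribosomal proteins lay above 0 with little spread between members and libraries. Of 78 oxidative phosphorylation genes 72 lay above 0 (54.8% of all genes). Of these 5 had p under 0.05 (2.66% of all genes, 3.61% of expressed ones). The list had a median of 0.40 (0.22 to 0.48 as libraries were left out). The median response was 0.22 in control and 0.66 in mutant, and the genotype difference -0.54 unlesioned and -0.15 at 4dpl. The list level was 5.76, 6.002 and 5.97 in control unlesioned, 6.11, 6.26 and 6.01 in control 4dpl, 5.28, 5.53 and 5.40 in mutant unlesioned and 5.92, 6.04 and 5.99 in mutant 4dpl libraries. The 3 mutant unlesioned libraries lay below all other 9. Of 78 ribosomal protein genes 74 lay above 0, none at p under 0.05, with a median of 0.33 (0.16 to 0.47) and genotype differences of -0.64 and -0.32. The 37 mitochondrially encoded genes are listed at 0 in every library and say nothing here.

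Ndufs6, an accessory subunit of complex I, had the smallest p. Ndufs6 was at 67.7, 92.5 and 84.6 CPM in control unlesioned libraries, 73.6, 88.6 and 66.5 CPM in control 4dpl, 42.4, 48.5 and 44.5 CPM in mutant unlesioned and 66.7, 79.1 and 79.5 CPM in mutant 4dpl libraries. Mutant unlesioned libraries lay below all others, and the control groups overlapped. The interaction was 0.83 ± 0.29, 0.64 to 0.96 as libraries were left out. Ndufa3, another complex I subunit, had 0.75 ± 0.29. Atp5b, the catalytic beta subunit of ATP synthase and the member with the highest CPM, again not per length, had 0.059 ± 0.35 (-0.15 without control unlesioned 1), with responses of 0.66 ± 0.25 in control and 0.72 ± 0.25 in mutant. Rpl38, of the large ribosomal subunit, was at 34.9, 44.05 and 41.7 CPM in mutant unlesioned libraries against 64.5, 90.8 and 90.2 CPM in control unlesioned ones, with an interaction of 0.64 ± 0.31 (0.41 without control 4dpl 3).

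The transcripts of both lists were short and near the middle in GC share. The median length was 930 bases for oxidative phosphorylation and 1054 for ribosomal proteins, against 3388 for expressed genes, and the median GC share 50.2% and 50.99% against 49.3%. Over all expressed genes the interaction moved with both. With 13614 expressed genes split into 10 equal bins by the GC share of the transcript, the median interaction went from -0.062 in the lowest bin to 0.27 in the highest. Genes at p under 0.05 above 0 went from 22 to 122. The median genotype difference went from 0.16 to -0.18 in unlesioned tissue, and was 0.068 and 0.060 at 4dpl. The bin of shortest transcripts, of 5 by length, had a median of 0.24, against 0.033 to 0.094 in the other 4. With offsets that remove each library's trend over GC and length, a setting added after the data were seen, the oxidative phosphorylation median was 0.20 and the ribosomal median 0.13, while the cholesterol, myelin and hydrolase medians were 0.51, 0.75 and -0.52.

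**Figure D4:**
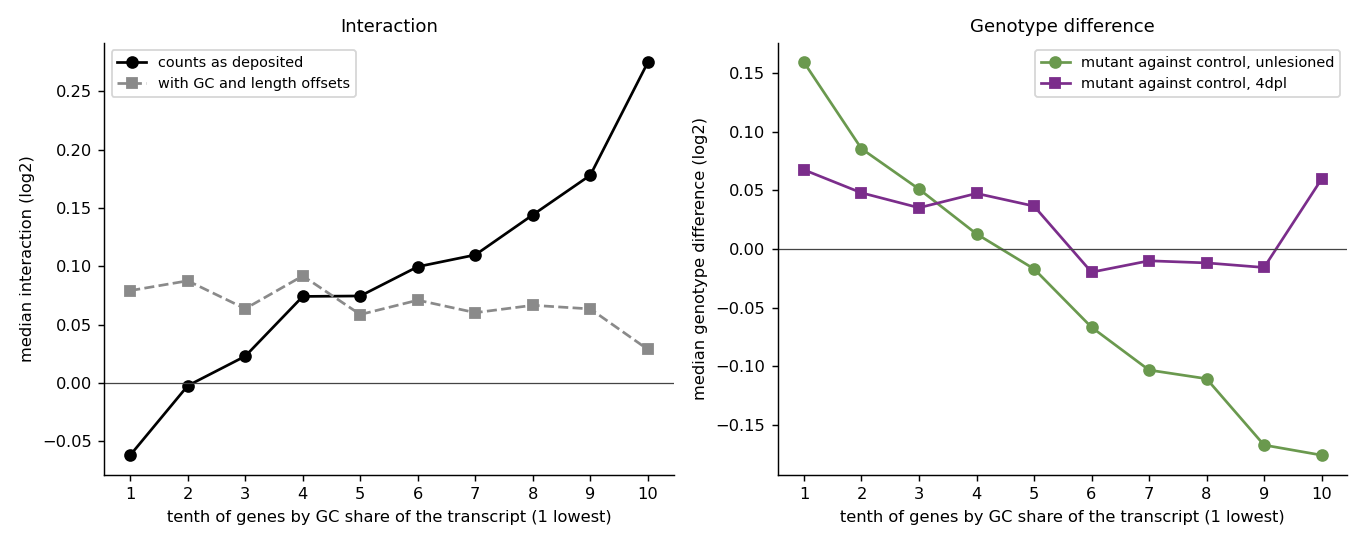
Median interaction (left) and median genotype difference (right), both log2, of 13614 expressed genes in 10 bins of transcript GC share, lowest first. The interaction climbs from -0.062 to 0.27 with counts as deposited and lies between 0.029 and 0.092 with the offsets, and the unlesioned genotype difference falls from 0.16 to -0.18.

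Fibroblast and meningeal markers had the lowest median of all lists, -0.92, with 9 of 14 below 0 and 4 at p under 0.05, all below 0 (1.14% of all genes). The genotype difference was 0.80 unlesioned and -0.61 at 4dpl. These genes took at most 0.023% of CPM, a trace of each library. Col1a1, a chain of type I collagen (ENSMUSG00000001506, chr11:94936224-94953042, plus strand), had the smallest p. Col1a1 was at 8.19, 3.34 and 3.17 CPM in control unlesioned libraries, 22.6, 46.1 and 17.02 CPM in control 4dpl, 6.50, 6.39 and 9.01 CPM in mutant unlesioned and 13.7, 9.34 and 9.39 CPM in mutant 4dpl libraries. Control 4dpl libraries lay above all others, and mutant 4dpl libraries above the unlesioned ones. The response was 2.54 ± 0.43 in control and 0.56 ± 0.41 in mutant, and the interaction -1.98 ± 0.58, -2.57 to -1.44 as libraries were left out. Col3a1, of type III collagen, had -2.38 ± 0.95 (-1.52 without mutant unlesioned 3).

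Dcn was at 7.85, 2.89 and 10.3 CPM in control unlesioned libraries, 7.54, 5.46 and 8.48 CPM in control 4dpl, 21.1, 11.4 and 20.04 CPM in mutant unlesioned and 4.41, 3.17 and 5.97 CPM in mutant 4dpl libraries. Dcn, the small proteoglycan decorin, thus differed from the collagens in where the gap lay. Its control groups overlapped, and in the mutant every 4dpl library lay below every unlesioned one. Its interaction was -1.98 ± 0.59. The 25 matrix genes as a list had a median of -0.28 with 15 below 0. Resting astrocyte markers lay at -0.26 with 12 of 16 below 0. Gja1, connexin 43 of astrocytes, was at 10.3, 8.24 and 11.997 CPM in control unlesioned and 24.05, 50.8 and 21.9 CPM in mutant unlesioned libraries, without overlap. Its interaction was -1.69 ± 0.55. Reactive astrocyte markers lay at 0.28, and -0.44 without control unlesioned 1. Serpina3n, a secreted protease inhibitor of reactive glia, rose over both genotypes by 2.26 ± 0.31 (adjusted p = 0.00204, edgeR with Benjamini-Hochberg), with an interaction of 1.09 ± 0.59 (0.64 without control unlesioned 1).

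Erythroid markers had the highest median of the 54 lists. The 9 erythroid genes tested of 10 all lay above 0, 4 at p under 0.05 (2.66% of all genes). The list had a median of 1.33 and responses of -1.25 in control and 0.22 in mutant. The median was 0.95 to 1.76 as libraries were left out, and -0.0065 with the study's replicate numbers as a block. Hba-a2 was at 9512, 10854 and 3438 CPM in control unlesioned libraries, 3671, 3242 and 1236 CPM in control 4dpl, 4319.7, 1842 and 2636 CPM in mutant unlesioned and 4229, 3567 and 2926 CPM in mutant 4dpl libraries. Hba-a2, an alpha globin, was highest in control unlesioned 1 and 2, and the other 10 libraries were at 4319.7 CPM or less. Its interaction was 1.83 ± 0.71. The 15 neutrophil markers had a median of 0.65, with 14 above 0. That median was -0.15 without mutant 4dpl 2 and -0.35 with that block. Camp, the cathelicidin of neutrophil granules, was at 1628, 6745 and 3289.7 CPM in mutant unlesioned and 1035, 5509 and 1631 CPM in mutant 4dpl libraries, so replicates differed several fold within a group. Its interaction was 1.25 ± 0.85 (0.23 without mutant 4dpl 2). The B and plasma cell list had a median of 0.75, which was 0.30 without control unlesioned 2. It was 0.18 with the study's replicate numbers as a block. Pax5, the B cell factor, had 1.26 ± 0.54. How far this blood RNA enters the other lists was not tested.

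The 23 NRF2 and glutathione genes had a median of 0.40, with 18 above 0. That median was 0.0012 without control unlesioned 1 and -0.41 with the study's replicate numbers as a block. Gclm was at 159.6, 89.9 and 48.5 CPM in control unlesioned libraries, 62.9, 46.5 and 35.9 CPM in control 4dpl, 67.3, 72.9 and 60.7 CPM in mutant unlesioned and 126, 131 and 111 CPM in mutant 4dpl libraries. Gclm, the modifier subunit of the enzyme that limits glutathione synthesis, did not overlap between mutant unlesioned and mutant 4dpl, where it was higher in the latter. Its interaction was 1.91 ± 0.49, 1.39 to 2.24 as libraries were left out. Gclc, the catalytic subunit, had 1.29 ± 0.48 (0.65 without control unlesioned 1). The antioxidant response element core TGACNNNGC was in 5 of 18 matched promoters of this list, Gclm among them, and in 12.8% of all.

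The 18 enzymes and readers of DNA methylation had a median of 0.16, with 11 above 0, and -0.11 without control unlesioned 1. Mbd3, a methyl-binding domain protein of the NuRD complex, was at 60.1, 42.6 and 46.2 CPM in mutant unlesioned and 84.1, 72.1 and 91.2 CPM in mutant 4dpl libraries, without overlap. Its interaction was 0.81 ± 0.29. Of 40 chromatin regulators 31 lay above 0, with a median of 0.20. Kdm1a, a histone demethylase, had 1.13 ± 0.52 (0.57 without mutant 4dpl 3), whereas the deacetylase Hdac8 and the methyltransferase Setdb1 had -0.64 ± 0.30 and -0.63 ± 0.29. Histone genes, most of them expressed in dividing cells, had a median of 0.44 with 39 of 56 above 0. Of these 5 had p under 0.05 (2.66% of all genes). Many histone copies are near identical, and the study counted uniquely aligned reads. Reads that fit more than 1 copy may thus be missing, so single members such as Hist1h4h (1.26 ± 0.43) are uncertain.

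Immediate early genes had a median of 0.18, and -0.15 without control unlesioned 1, yet the list held the gene with the smallest p of all expressed genes. Jund was at 81.05, 69.4 and 45.7 CPM in control unlesioned libraries, 10.6, 18.97 and 19.1 CPM in control 4dpl, 55.2, 70.04 and 56.9 CPM in mutant unlesioned and 52.7, 60.95 and 116 CPM in mutant 4dpl libraries. Jund, an AP-1 subunit (ENSMUSG00000071076, chr8:70698949-70700616, plus strand), had a response of -2.01 ± 0.34 in control, where it fell (adjusted p = 0.0214, edgeR with Benjamini-Hochberg). In the mutant its response was 0.34 ± 0.32. Control 4dpl libraries lay below all other 9. The interaction was 2.35 ± 0.47, 1.92 to 2.57 as libraries were left out. Klf2, a zinc finger factor of the same list, had 1.58 ± 0.50.

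Solute carriers, which move ions and metabolites across membranes, were balanced, with a median of -0.020 and 171 of 362 above 0. At p under 0.05 there were 5 on each side (1.38%), against 2.66% of all genes above 0 and 1.14% below. Slc12a2 was at 113, 146 and 169.9 CPM in control unlesioned libraries, 103, 126 and 137 CPM in control 4dpl, 175, 85.4 and 118 CPM in mutant unlesioned and 133, 159.7 and 428 CPM in mutant 4dpl libraries. Slc12a2, the sodium, potassium and chloride cotransporter NKCC1, overlapped between all groups except for mutant 4dpl 3, which lay above the rest. Its interaction was 1.16 ± 0.56, and 0.44 without that library. Slc22a23, an orphan organic ion transporter, had 1.01 ± 0.60 and 0.18 without it. Slc44a1, a choline transporter, had 1.90 ± 0.68 (0.74 without mutant 4dpl 3), with mutant 4dpl libraries at 183, 247 and 1007 CPM. The 140 ion channel genes tested had a median of 0.065. Hcn2, a cyclic nucleotide-gated pacemaker channel, had 3.54 ± 0.96, with 10.3, 11.2 and 10.1 CPM in control 4dpl and 28.4, 52.9 and 371 CPM in mutant 4dpl libraries, and 1.66 without the last of these.

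The genes with the smallest p above 0 after Jund were Taf10, Nsmce4a, Glrx5, Tmem160, Zfp771, Sox4 and Smtnl2. Taf10, a subunit of the TFIID and SAGA complexes, was at 74.9, 58.98 and 42.4 CPM in control unlesioned and 20.9, 27.2 and 23.01 CPM in control 4dpl libraries, without overlap. It was at 33.2, 50.6 and 37.96 CPM in mutant unlesioned and 42.9, 57.3 and 55.99 CPM in mutant 4dpl libraries, which overlapped. Its interaction was 1.67 ± 0.35. Below 0 the smallest were Nxph1, a neurexophilin (-1.98 ± 0.57), Mamdc2 (-2.78 ± 0.81), Col1a1, Dcn, Myl9, Pdgfra, Fbn1 (-1.72 ± 0.55) and Vcan. Fbn1 encodes fibrillin 1, of the microfibrils of extracellular matrix.

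A few genes lay in opposite directions in the genotypes with no overlap of libraries in either. There were 45 genes with every control library lower at 4dpl and every mutant library higher (0.145%), and 6 the other way (0.0193%). Tmem160 was at 40.7, 48.7 and 49.8 CPM in control unlesioned libraries, 24.7, 36.1 and 25.2 CPM in control 4dpl, 23.9, 28.3 and 25.9 CPM in mutant unlesioned and 41.4, 42.8 and 35.8 CPM in mutant 4dpl libraries. The level of this transmembrane protein in mutant unlesioned libraries was close to that of the control 4dpl libraries. Its interaction was 1.32 ± 0.29. Glrx5, a mitochondrial glutaredoxin of iron-sulfur cluster assembly, had 1.58 ± 0.35, and Smtnl2, a smoothelin-like protein, 1.997 ± 0.47. Myl9, a regulatory light chain of smooth muscle myosin, was the one of this kind among the 8 smallest p-values below 0, with -1.69 ± 0.50.

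**Figure D5:**
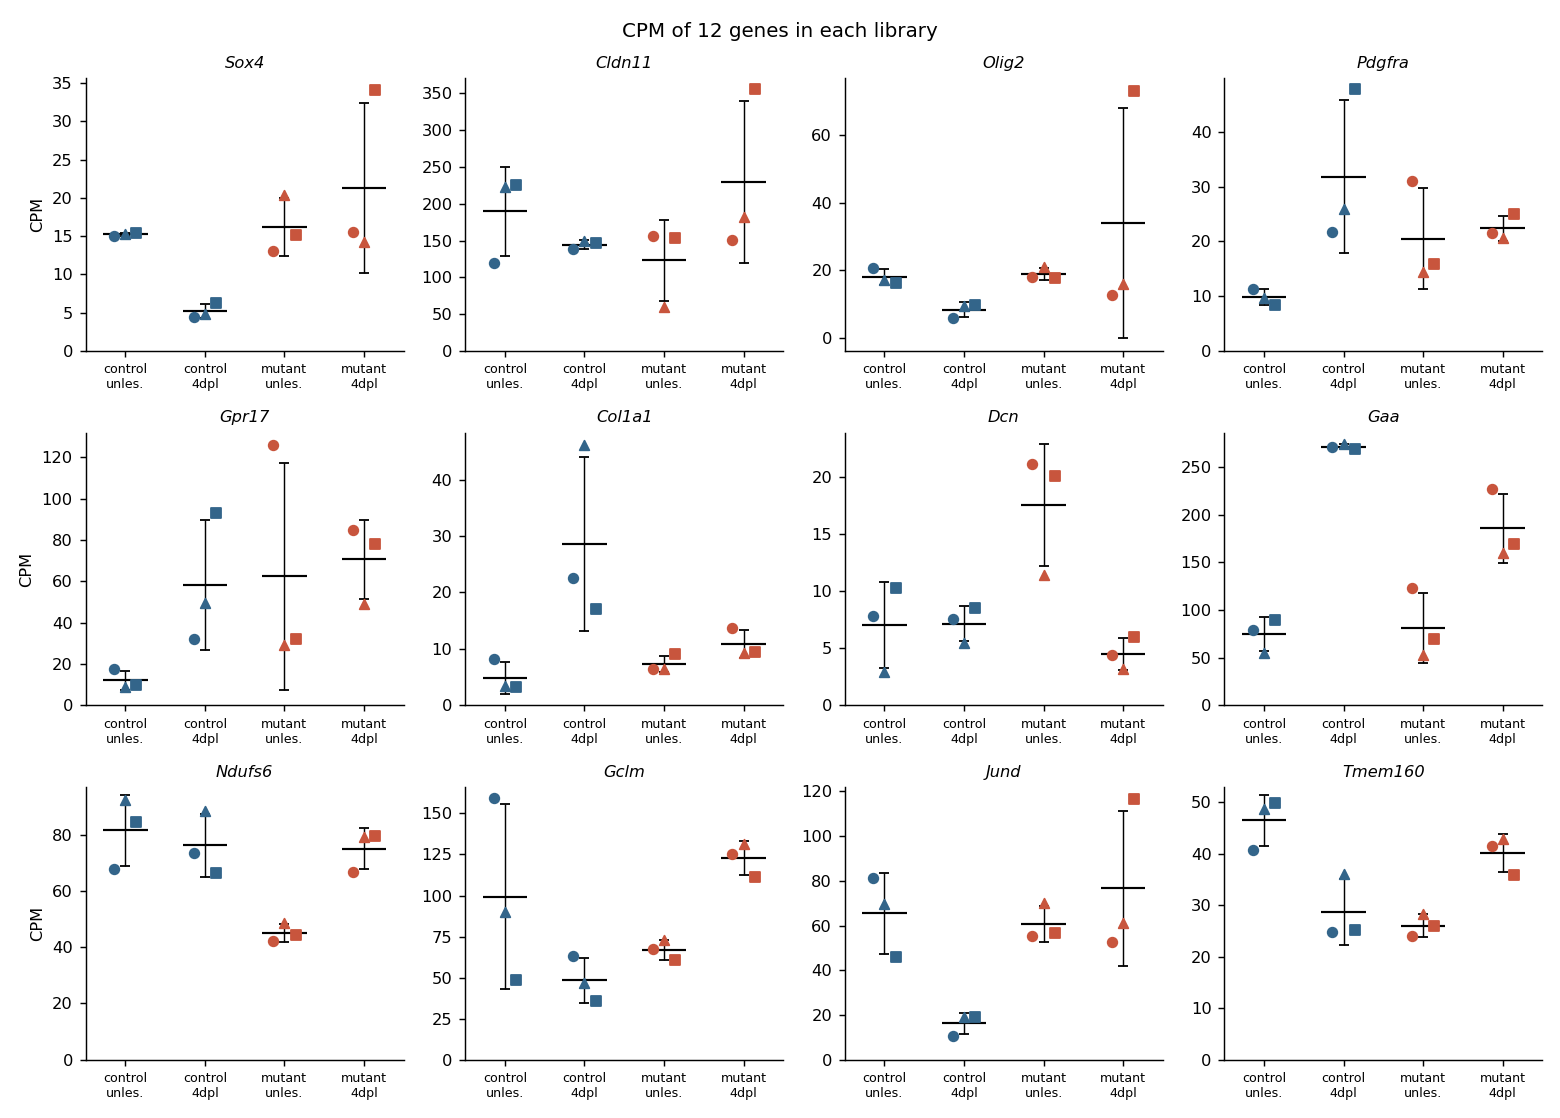
CPM of 12 genes in each of the 12 libraries by group, with symbols for replicate number and bars for the mean and SD of 3 libraries, each panel with its own linear axis. Jund and Sox4 are low in control 4dpl libraries alone, Col1a1 is highest in the control 4dpl libraries, Pdgfra has its highest value in 1 of them, Ndufs6 is low in mutant unlesioned libraries, and mutant 4dpl 3 carries the mean of Olig2.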

How the data were processed

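RNA-seq was made from Percoll-enriched spinal cord preparations. Per the deposited files each of the 12 libraries is a table of raw read counts per gene, which the authors obtained with featureCounts on the Ensembl annotation of GRCm38 (mm10). The aligner is BWA in the study's methods and STAR in the submitters' processing notes, which also name DESeq2 1.2.5. All 12 libraries, 34805086 to 67251544 counts each, were grouped by their labels.

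Counts were fitted with edgeR 4.0.16 (R 4.3.3) in a model of 4 groups without covariates, after filterByExpr (31109 genes kept) and TMM scaling, and contrasts were tested with the quasi-likelihood F test. Calls needed p under 0.01 and Benjamini-Hochberg adjusted p under 0.05 over all 31109 genes, the study's thresholds. CPM are TMM-scaled, and list levels are means of log2 CPM with a prior count of 2. Single-gene values are log2 differences ± SE from the fit. List medians are descriptions, with no test of a list. The members and lists were chosen with earlier results of these data known. Genes were named by a rule: Tet1, Tet2, Tet3, Olig1 and the solute carriers of the study, the 8 smallest p-values on each side of 0 among genes with a symbol and a mean log2 CPM of at least 1, and, in each list, the 3 smallest p-values and the highest level. Genes listed only for a promoter motif were named for that motif. Some genes that the rule names are not reported here.

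Alternatives were DESeq2 1.42.0, limma-voom 3.58.1 with sample weights, other scalings and filters, 2 replicate blocks, each library left out and GC and length offsets. Transcript GC and length came from GENCODE M21, and promoters from RefSeq. The scripts were tested on simulated data. Counting is per gene, and whether it used strand is not given in the sources used here, so antisense genes cannot be told apart. The study counted uniquely aligned reads, so near-identical genes may be counted only where they differ.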

Additional observations from a re-analysis of the deposited data

Results flagged for a closer look

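These 4 genes, among those named by the smallest p, were singled out for responses in opposite directions without overlap of libraries in either genotype. In one genotype every 4dpl library lay above every unlesioned one, and in the other every 4dpl library lay below. Since the genes came from the smallest p, the direction is no separate evidence. That opposite direction was seen and not tested as such, and the interaction of each failed the adjusted threshold (adjusted p = 1, edgeR with Benjamini-Hochberg).

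Tmem160 had an interaction of 1.32, with mean levels of 46.4 and 28.7 CPM in control and 26.02 and 40.03 CPM in mutant, unlesioned first. Glrx5 had 1.58, from 83.4 to 36.7 CPM in control and from 44.6 to 58.6 CPM in mutant. Smtnl2 had 1.997, from 8.56 to 5.39 and from 7.85 to 19.7 CPM. Myl9 had -1.69, from 1.64 to 2.79 and from 4.19 to 2.20 CPM.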

How the results depend on the processing

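All 22 alternatives and the chosen settings called 0 genes for the interaction. The smallest adjusted p among them was 0.0927 with DESeq2 and 0.276 with no filter, and it was between 0.483 and 1 as each library was left out. Genes at an unadjusted p under 0.05 below 0 numbered 551 with DESeq2, 861 with no filter and 901 with limma-voom, against 356. With at least 10 counts in every library they were 535 above and 150 below 0. The share of such genes above 0 was 69.9%, and it was 58.8% with DESeq2, 61.0% with RLE factors, 55.0% with upper quartile factors and 56.8% with limma-voom. As libraries were left out, genes below 0 ranged from 266 to 1155 and genes above 0 from 691 to 1144, the 1155 being without control unlesioned 1. The lesion response over both genotypes had 1165 genes up and 8878 down with upper quartile factors, and 1848 and 1743 with at least 10 counts in every library.

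The median interaction of genes called up after lesion was -0.38 with upper quartile factors, and 0.12 when genes were chosen in the mutant alone, and -0.31 to 0.13 as libraries were left out and genes chosen anew. For genes called down it was 1.07 chosen in control, -0.98 chosen in mutant and -0.43 to 0.54 as libraries were left out.

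The labels number replicates 1 to 3 in each group. Deviations of same-numbered unlesioned and 4dpl libraries correlated at 0.323, 0.215 and 0.314 in control and 0.202, 0.321 and 0.067 in mutant. All 3 control pairs and 2 of 3 mutant pairs passed 0.1, and in 4 of 6 the own number correlated best. Since 1 pair was under 0.1 and no label ties the numbers to mice, the chosen model has no block. A replicate block on those numbers gave 837 genes above and 309 below 0 at p under 0.05 and 0 calls, and no gene named here changed sign. The 6 list medians that did were -0.18 for macrophages, -0.15 for reactive astrocytes, -0.038 for antigen presentation, -0.096 for interferon-stimulated genes, -0.0020 for iron and heme and -0.12 for ER stress. The study's methods number the same libraries otherwise, with only 2 numbers shared by both states of a genotype (correlations -0.154 and -0.024 in control, 0.202 and -0.245 in mutant). With that number as a block, a library without a partner adds nothing to either lesion response. The values thus rest on the libraries that share a number, and control unlesioned 1 is not among them. They differ from the main fit in the libraries used as well as in the pairing. Then 587 genes lay above and 686 below 0, and the lesion response had 2818 up and 2482 down. List medians under this block were -0.48 for genes called up after lesion, 0.83 for genes called down after lesion, 0.057 for progenitors, -0.045 for homeostatic microglia, -1.28 for macrophages, -0.35 for neutrophils, -0.49 for reactive astrocytes, -0.54 for fibroblasts, -0.0065 for erythroid cells, 0.025 for cholesterol synthesis, -0.30 for sphingolipids, -0.18 for autophagy, -0.66 for antigen presentation, -0.94 for interferon-stimulated genes, -0.43 for iron and heme, -0.41 for NRF2 and glutathione, -0.22 for immediate early genes, -0.41 for ER stress, -0.62 for cell cycle, -0.23 for DNA methylation and 0.76 for olfactory receptors. Single genes were -0.67 for Hmox1, -0.20 for Isg15, -0.80 for Rsad2, 0.28 for Apoe and -0.25 for Atp5b.

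With limma-voom the medians were -0.67 for reactive astrocytes, 0.036 for cholesterol synthesis, -0.22 for sphingolipids, -0.33 for antigen presentation, -0.53 for interferon-stimulated genes and -0.10 for immediate early genes, and single genes -0.13 for Hmgcs1 and -0.11 for Atp5b. With the GC and length offsets, added after the data were seen, they were 0.20 for oxidative phosphorylation and 0.13 for ribosomal proteins, and with at least 10 counts in every library -0.45 for fibroblasts. Atp5b was -0.024 with DESeq2 and with RLE factors, -0.084 with upper quartile factors and -0.0033 with at least 10 counts. As each library was left out in turn, medians ranged from 0.14 to 1.19 for structural myelin, from 0.28 to 1.28 for mature oligodendrocyte, from -0.76 to -0.15 for progenitors, from -0.93 to -0.044 for homeostatic microglia, from -0.15 to 1.22 for neutrophils, from -0.44 to 0.54 for reactive astrocytes, from -1.15 to -0.55 for fibroblasts, from -0.82 to 0.39 for ependymal cells, from 0.051 to 0.72 for cholesterol synthesis, from -0.29 to 0.22 for PPAR targets and lipid droplets, from -0.52 to 0.42 for antigen presentation, from -0.75 to 0.82 for interferon-stimulated genes, from -0.23 to 0.28 for iron and heme, from -0.15 to 0.29 for immediate early genes, from -0.28 to 0.17 for heat shock chaperones, from -0.31 to 0.13 for ER stress, from -0.11 to 0.35 for DNA methylation, from -0.36 to 0.23 for growth factors and from 0.22 to 0.48 for oxidative phosphorylation. Single genes ranged from -0.34 to 0.25 for Tet2, from -1.003 to 0.083 for Ctsd, from -0.11 to 0.99 for Hmgcs1, from -0.072 to 1.65 for Rsad2, from -1.07 to 0.11 for Apoe and from -0.15 to 0.18 for Atp5b.

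Of list medians under these settings, 606 without 1 library and 545 under other settings moved by less than 1 SD between libraries, some of them across 0. Without 1 library, 23 others moved further with the same sign and 19 with the sign reversed. Under other settings these were 27 and 22. Only 17 of the 54 lists kept their sign throughout. Of the values for named genes, 876 and 729 kept their sign, 12 and 11 changed it, and none passed the adjusted threshold. Leaving out a library leaves 2 in a group, whose spread is then shared with the other groups. The cause of these changes was not tested. With 3 libraries a group and a median SE of 0.43, differences of the size of most list medians were not detectable for a single gene.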

Other observations

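Genes of infiltrating and border macrophages had a median interaction of 0.030, but Arg1, arginase 1, of macrophages in wounds, lay far above it. Arg1 was at 407, 15.04 and 20.3 CPM in control unlesioned libraries, 409, 432 and 129 CPM in control 4dpl, 1.38, 1.93 and 3.83 CPM in mutant unlesioned and 104, 55.99 and 30.7 CPM in mutant 4dpl libraries. The mutant unlesioned libraries were the lowest 3 of the 12, and control unlesioned 1 was as high as the control 4dpl libraries. The Arg1 interaction was 3.61 ± 1.37, and 0.55 without control unlesioned 1. Hmox1, heme oxygenase 1, was at 3103, 1869.9 and 545 CPM in control 4dpl and 2107, 1451 and 268 CPM in mutant 4dpl libraries, with an interaction of 1.70 ± 1.09 (0.79 without control unlesioned 1), in an iron and heme list at 0.064.

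Growth factors had a median of -0.11 with 9 of 20 above 0. Fgf2, fibroblast growth factor 2, a mitogen for progenitors, was at 1.43, 1.57 and 1.62 CPM in control unlesioned and 4.34, 2.50 and 6.06 CPM in control 4dpl libraries, without overlap, while its mutant groups overlapped. The Fgf2 interaction was -1.75 ± 0.62. Timp2, an inhibitor of matrix metalloproteases, was at 299, 286 and 277 CPM in mutant unlesioned and 492, 461 and 631 CPM in mutant 4dpl libraries, also without overlap, with 1.15 ± 0.38, in a protease list at -0.31. Map1lc3a, which coats autophagosomes, had 1.07 ± 0.36, in an autophagy list at 0.16 with 19 of 25 above 0. The autophagy median was -0.064 without control 4dpl 3. Lists of ER stress (0.0094), heat shock chaperones (-0.064), glycolysis and the citrate cycle (-0.032) and chemokines (-0.058) lay near 0. The cell cycle list was at 0.11 with 19 of 25 above 0. Its median was -0.16 without control unlesioned 1 and 0.48 without mutant unlesioned 2.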
